A study of Homo sapiens with 9 samples.

Results

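WNT ligands, Frizzled (FZD) receptors, secreted Frizzled-related proteins (SFRP) and Dickkopf (DKK) proteins were followed in Rh30 cells grown in 3 ways. The members were all genes whose symbol in the array annotation is WNT, FZD, SFRP or DKK followed by its family number, read from probe sets annotated to that symbol alone. This gave 34 of the 19775 genes measured, on 69 of 54613 probe sets: 17 WNT genes on 32 probe sets, 9 FZD genes on 18, 4 SFRP genes on 9 and 4 DKK genes on 10. The brightest probe set by mean over all arrays stood for each gene. WNT3 and FZD8 had only probe sets that share their annotation with another symbol, 3 each, and WNT3A was not analysed here.

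Rh30 is an established human line of fusion-positive rhabdomyosarcoma (FP-RMS), a soft tissue cancer of the muscle lineage, and every sample carried the PAX3-FOXO1 fusion. The question was how growth as a tumor in mice or as free-floating spheres alters expression relative to a monolayer, and each group held 3 arrays. Xenografts were grown in immunodeficient SCID/beige mice. The sources differ on how they were made, the labels naming the flank, Matrigel and cells from either culture form, and the study's methods the leg muscle and adherent cells. Spheres were grown in Neurobasal medium with B27 at 1X, basic fibroblast growth factor at 80 ng/ml, epidermal growth factor at 40 ng/ml and insulin at 50 µg/ml, and adherent cells in serum-containing medium. Medium and growth form therefore cannot be told apart in the spheres, all 3 groups came from 1 cell line, and in such bulk RNA fewer cells expressing a gene and less RNA per cell cannot be told apart.

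WNT proteins are secreted, lipid-modified ligands that bind Frizzled receptors together with a coreceptor. With LRP5 or LRP6 as coreceptor the signal stabilises β-catenin, which enters the nucleus and acts with TCF/LEF factors, whereas ligands such as WNT5A and WNT11 are best known for β-catenin-independent signaling through planar cell polarity and calcium. SFRP proteins carry a Frizzled-like domain and bind WNT ligands outside the cell, and Dickkopf proteins of the DKK1 type block LRP5 and LRP6. In the embryo these signals help pattern the somites and guide myogenesis.

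Values are log2 intensities after robust multi-array averaging (RMA), so a difference of 1 is a 2-fold difference. Correlations between arrays were 0.990 to 0.998 within groups and 0.965 to 0.987 between groups, and array medians lay between 4.78 and 4.88. Of 10 muscle lineage markers, 9 were above the dim level defined below in at least 1 group, MYF5 being the exception. Of these 10, 1 was higher and 5 lower in xenografts than in adherent cells, and 5 were lower in spheres, with summed linear values of 9490 to 10400 in xenografts, 8110 to 8230 in spheres and 10800 to 11400 in adherent cells. Of 7 adult muscle fibre markers, 5 of them dim in every group, 3 were higher and 1 lower in xenografts than in adherent cells, and 1 was higher and 2 lower in spheres. The part of these muscle markers' shifts in the results was not tested. The study's methods describe the 3 samples of each group as biological replicates. The array probes are human, and mouse RNA in a xenograft is seen only where it cross-hybridises. Summed linear values of 10 fibroblast and matrix markers were 1830 to 3010 in xenografts, 1640 to 1940 in spheres and 1470 to 1580 in adherent cells. Within that list 5 markers rose and 1 fell in xenografts relative to adherent cells, while FAP and POSTN were dim in every group. The largest measured rise was that of LUM, at 2.82 log2 units. Its adherent mean lay under the dim level, and set against that level LUM was at least 3.84-fold higher in xenografts. Summed values of 8 endothelial markers were 165 to 208 in xenografts, 152 to 177 in spheres and 156 to 167 in adherent cells, with 5 of the 8 dim. Those of 7 macrophage and leukocyte markers were 161 to 189, 127 to 139 and 128 to 146 in the same order of groups, with 6 of the 7 dim. The part of host RNA in the xenograft results was not tested. The difference between 3′ and 5′ ACTB probe sets, which grows as RNA is degraded, was 2.30 to 2.75 in xenografts, 3.15 to 3.31 in spheres and 2.07 to 2.67 in adherent cells, and its part in the sphere results was not tested. The mean of the poly-A control probe sets, which read RNA added before labelling, was 7.79 to 8.61 in xenografts, 7.05 to 7.46 in spheres and 7.26 to 7.60 in adherent cells, so the xenograft arrays stood apart, and its part in the xenograft results was not tested.

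A member was called at an adjusted p under 0.05 in a model fitted over all probe sets. Relative to adherent cells, xenografts differed in 12 of the 34 members (35.3%), against 26.9% of all genes. WNT6, WNT10B and FZD7 were higher (3 members, against 12.6% of all genes), and WNT5A, WNT5B, FZD1, FZD3, FZD5, FZD6, SFRP4, DKK1 and DKK3 were lower (9 members, against 14.3%). The median difference was 0.10 over the members and 0.08 over all genes. Spheres differed from adherent cells in 7 members (20.6%), against 29.8% of all genes, with WNT11, FZD5, FZD7 and DKK3 higher (4 members, against 13.5% of all genes) and FZD1, SFRP4 and DKK1 lower (3 members, against 16.3%). The median was -0.02 over the members and -0.04 over all genes. Xenografts differed from spheres in 17 members (50.0%), against 44.0% of all genes. WNT1, WNT6, WNT7B, WNT9B, WNT10A, WNT10B, SFRP1 and SFRP2 were higher (8 members, against 25.7% of all genes), and WNT5A, WNT5B, WNT11, FZD3, FZD5, FZD6, SFRP4, DKK1 and DKK3 were lower (9 members, against 18.3%). The median was 0.11 over the members and 0.13 over all genes. All 3 comparisons draw on the same 9 arrays, so each is given with its own values. With each array centred on its median, the split of higher and lower members moved to 4 and 5 for spheres against adherent cells, and with quantile normalization to 5 and 9 for xenografts against spheres.

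**Figure D1:**
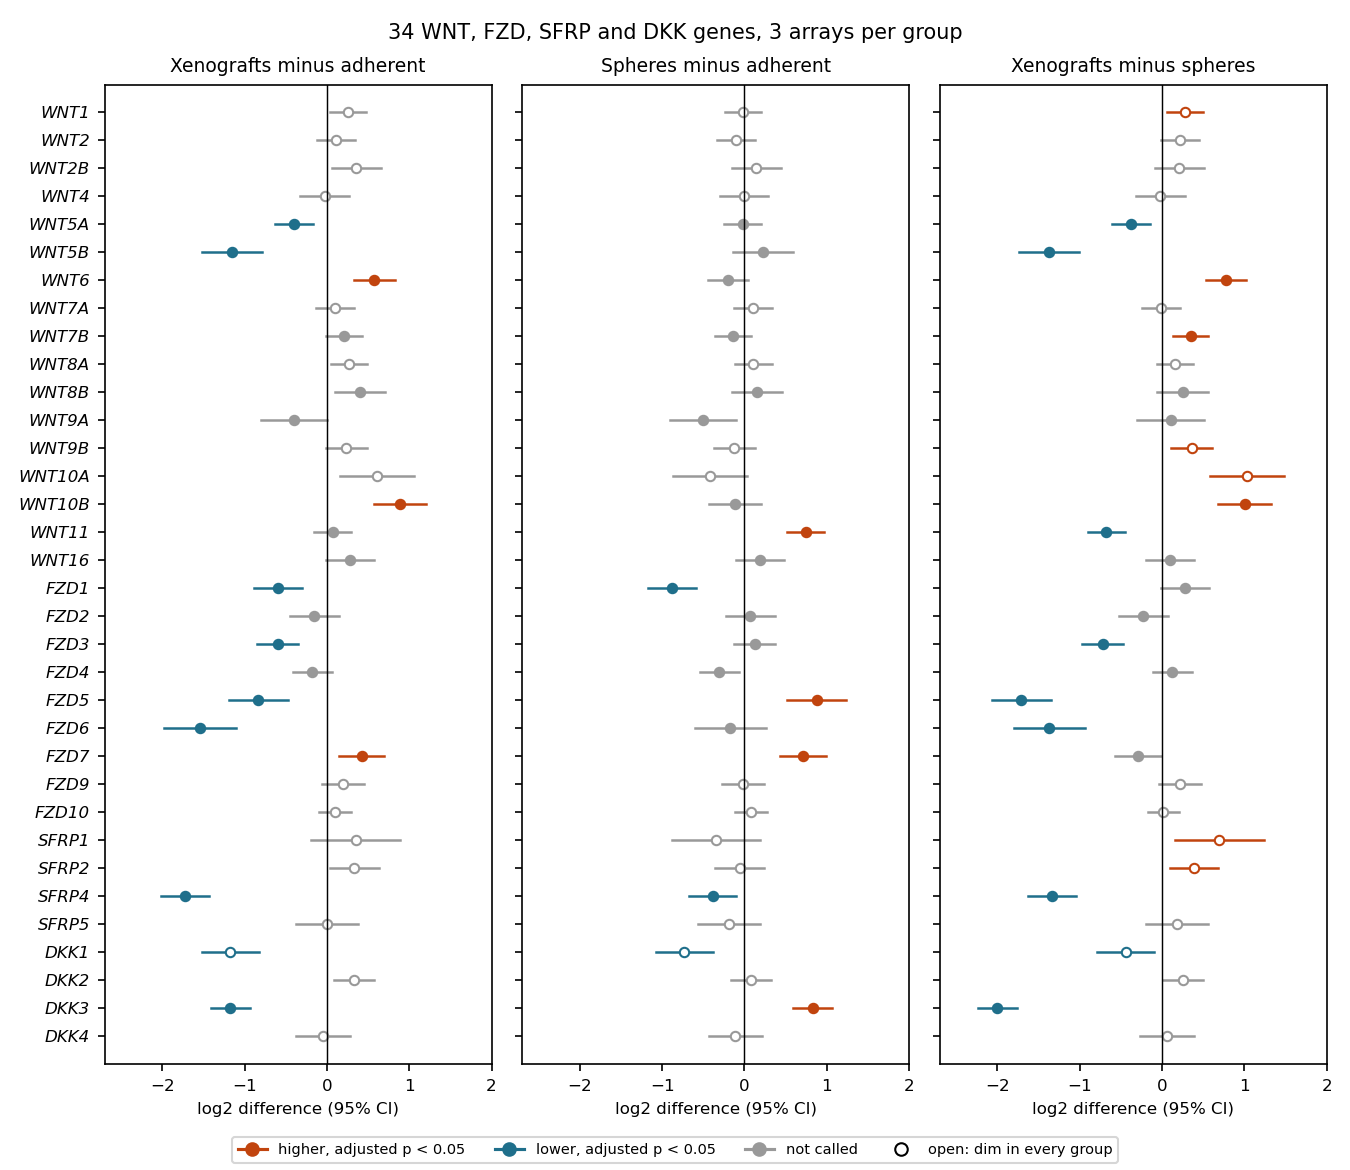
Difference in log2 RMA value (x axis, with 95% confidence interval) for the 34 members (y axis) in xenografts minus adherent cells, spheres minus adherent cells and xenografts minus spheres, 3 arrays per group. Red and blue mark called higher and lower, grey not called, and open symbols members dim in every group; 12, 7 and 17 members are coloured in the 3 panels.

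Measured changes of at least 2-fold were called for 5 members in xenografts against adherent cells, all lower, against 3.28% of all genes. In xenografts against spheres 7 members passed this size, 2 higher and 5 lower, against 7.58% of all genes. The first count includes DKK1 and the second WNT10A, each under the dim level defined below in every group. Both include FZD6, for which that level bounds the change only at 1.505-fold and 1.34-fold. The true size is therefore not known to reach 2-fold for these members. In spheres against adherent cells no member passed 2-fold at its brightest probe set, against 5.81% of all genes. There limma called 7 members at any size, and 9 had an unadjusted p under 0.05. At another probe set, 238129_s_at, FZD2 was called lower in spheres by 1.09 log2 units. Xenograft and adherent arrays were fully separate for 21 members, against 43.9% of all genes. Such separation held for 10 members in spheres against adherent cells, against 47.7%, and for 16 in xenografts against spheres, against 52.8%. Across the comparisons 4 members were called in all 3 (11.8%, against 7.07% of all genes), 15 in none (44.1%, against 44.7%), and 6 in both comparisons with adherent cells (17.6%, against 12.4%).

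Signal over background differed between the members. A member was termed dim when its mean in every group lay under 5.17, the 95th percentile of the same value over 107 probe sets of olfactory receptor genes, which muscle tumors are not known to use. Of the 34 members 16 were dim. Only DKK1 was called among these in xenografts and in spheres against adherent cells, whereas 6 (WNT1, WNT9B, WNT10A, SFRP1, SFRP2 and DKK1) were called in xenografts against spheres. Over the 16 dim members the median difference of xenografts from adherent cells was 0.22, and over the 18 others it was -0.29. Against spheres the same medians were 0.21 and -0.26. In xenografts against adherent cells 6.25% of the dim members were called, and 61.1% of the 18 others. The share over all genes counts dim and brighter genes together, so it is not matched in brightness to a family or list. Genes of similar brightness moved alike at the dim end, as the values beside WNT10A below show, so a small positive difference of a dim member in xenografts cannot be told apart from a shift of dim probe sets in general.

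Among the ligands, WNT5B fell in xenografts and WNT6 and WNT10B rose, while WNT11 was the 1 ligand called in spheres against adherent cells. WNT ligands accounted for 4 calls of 17 in xenografts against adherent cells (2 higher, 2 lower), or 23.5% against 26.9% of all genes, and for 9 in xenografts against spheres (6 higher, 3 lower), or 52.9% against 44.0%. WNT5B, a relative of WNT5A that acts mainly without β-catenin, read 7.75, 8.31 and 8.55 in xenografts, 9.69, 9.52 and 9.51 in spheres and 9.32, 9.29 and 9.44 in adherent cells. All xenograft arrays lay below every cultured array. The difference of xenografts from adherent cells was -1.15 ± 0.17 (SE), or 0.451-fold (adjusted p = 5.49e-04), and that from spheres was -1.37 ± 0.17 (adjusted p = 6.32e-05). Spheres differed from adherent cells by 0.22 (adjusted p = 0.403). A second WNT5B probe set, 223537_s_at, gave -0.96 and -1.12 for xenografts against adherent cells and against spheres, both called, and the dim 230299_s_at gave -0.01 and -0.07.

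**Figure D2:**
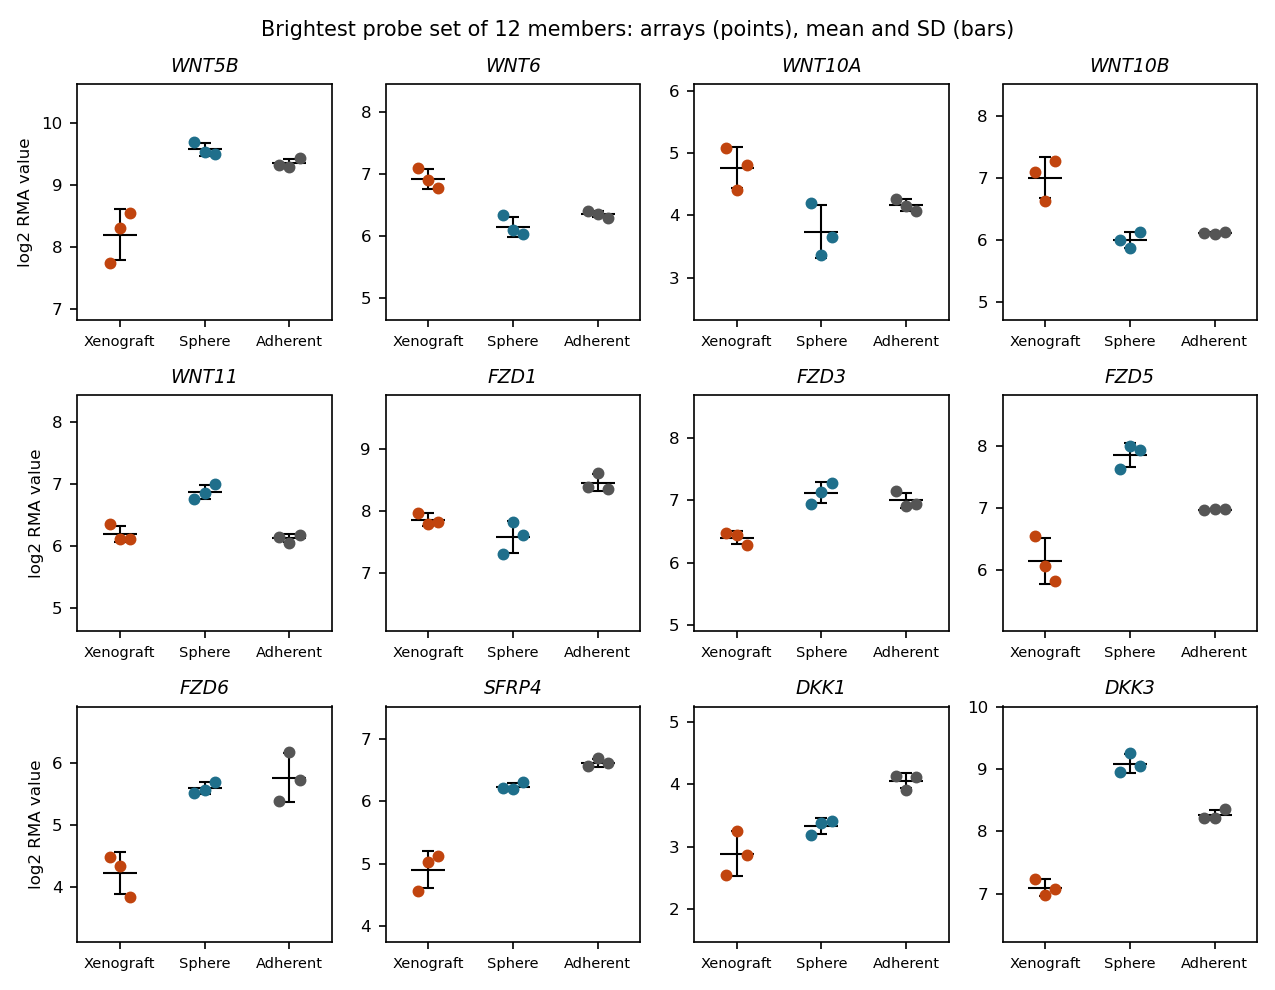
Log2 RMA value (y axis, spanning the same number of log2 units in each panel) of the brightest probe set of 12 members in the 3 xenograft, 3 sphere and 3 adherent arrays (x axis); points are arrays and bars the mean with its SD. WNT5B, FZD3, FZD5, FZD6, SFRP4 and DKK3 have all xenograft arrays lowest, and WNT6, WNT10A and WNT10B have them highest. WNT11, FZD5 and DKK3 have all sphere arrays highest.

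WNT5A, the best-studied ligand of the β-catenin-independent branch, averaged 9.51 ± 0.13 in xenografts, 9.89 ± 0.08 in spheres and 9.91 ± 0.13 in adherent cells (SD, n = 3). Its decrease in xenografts was smaller, at 0.757-fold of adherent cells (adjusted p = 0.0174) and 0.769-fold of spheres (adjusted p = 0.0143). The first call was lost without adherent replicate 2 (adjusted p = 0.0822), without xenograft replicate 3 (0.0525) and with quantile normalization (0.054), and the second without sphere replicate 3 (0.0546). Its second probe set, 213425_at, was called lower in xenografts against adherent cells (-0.69) and not against spheres (-0.23).

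WNT10B, a β-catenin-activating ligand that holds back adipogenesis in mouse, read 7.10, 6.63 and 7.28 in xenografts, 6.005, 5.88 and 6.12 in spheres and 6.11, 6.10 and 6.12 in adherent cells. Every xenograft array exceeded every cultured array. The increase in xenografts was 0.89 ± 0.14 over adherent cells, or 1.85-fold (adjusted p = 0.00112), and 1.00 ± 0.14 over spheres (adjusted p = 2.22e-04). Spheres differed from adherent cells by -0.11 (adjusted p = 0.669). WNT1, whose gene is the next protein-coding gene to WNT10B on chromosome 12, was dim, with means of 2.80, 2.52 and 2.54 in xenografts, spheres and adherent cells.

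WNT6, which signals from surface ectoderm to the somites in the chick embryo, read 7.09, 6.90 and 6.77 in xenografts, 6.33, 6.09 and 6.02 in spheres and 6.39, 6.35 and 6.30 in adherent cells. The xenograft arrays were again the 3 highest. The increase was 0.58 ± 0.11 over adherent cells, or 1.49-fold (adjusted p = 0.00345), and 0.77 ± 0.11 over spheres, or 1.71-fold (adjusted p = 2.30e-04). Of the other 3 WNT6 probe sets, 221609_s_at was called in both comparisons (0.45 and 0.35), and 221608_at and 222086_s_at in neither. WNT10A, which lies next to WNT6 among protein-coding genes of chromosome 2 and is known for its roles in teeth and skin appendages, read 5.08, 4.41 and 4.82 in xenografts, 4.21, 3.36 and 3.66 in spheres and 4.26, 4.16 and 4.07 in adherent cells. Its xenograft arrays lay above all others, but it was dim in every group. The measured difference from spheres was 1.03 ± 0.20 (adjusted p = 0.00206), and the difference from adherent cells was 0.61 (adjusted p = 0.0525). The second WNT10A probe set, 229154_at, was also higher in xenografts than in spheres (0.33). For the brightest WNT10A probe set, 223709_s_at, the 500 genes nearest in brightness had a median difference of 0.24 over spheres and 0.18 over adherent cells.

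Because WNT6 and WNT10A are neighbours and both were higher in xenografts than in spheres, the 300 bases around each start site are shown as RefSeq gives them in GRCh38.p14, for WNT6 at chr2:218859555-218859854 and for WNT10A at chr2:218880602-218880901, both on the plus strand and written 5′ to 3′.
WNT6: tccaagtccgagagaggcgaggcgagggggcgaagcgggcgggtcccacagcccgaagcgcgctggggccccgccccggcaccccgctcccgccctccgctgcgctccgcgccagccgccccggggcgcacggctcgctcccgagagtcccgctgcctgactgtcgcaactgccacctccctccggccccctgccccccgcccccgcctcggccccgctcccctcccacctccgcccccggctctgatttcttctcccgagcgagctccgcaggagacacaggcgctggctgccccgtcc
WNT10A: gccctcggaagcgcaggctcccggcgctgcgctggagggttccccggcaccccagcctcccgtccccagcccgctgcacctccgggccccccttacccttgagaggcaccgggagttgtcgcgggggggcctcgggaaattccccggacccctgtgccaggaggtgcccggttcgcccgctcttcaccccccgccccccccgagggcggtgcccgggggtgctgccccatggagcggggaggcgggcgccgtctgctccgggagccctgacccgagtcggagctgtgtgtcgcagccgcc
Such windows, from upstream of the start to shortly after it, were searched on both strands for the TCF/LEF words ATCAAAG and TTCAAAG, the core word of hypoxia response elements ACGTG and the AP-1 word TGANTCA, which is its own reverse complement. The windows of WNT6 and WNT10A hold none of them, so no base is in capitals, and their GC content is 78.0% and 76.7%. Of the 34 members 22 matched an entry, and among 35116 promoters of the same length 6.86% hold one of the TCF/LEF words, 21.4% ACGTG and 7.71% TGANTCA. Among the 22, 1 holds a TCF/LEF word, 2 hold ACGTG and 0 hold TGANTCA. A match is a stretch of letters and not a measured site.

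WNT11, a ligand of cell movements that is also known from heart and muscle development, read 6.35, 6.12 and 6.12 in xenografts, 6.76, 6.86 and 6.999 in spheres and 6.15, 6.06 and 6.18 in adherent cells. The 3 sphere arrays stood above the rest. The increase in spheres over adherent cells was 0.74 ± 0.10, or 1.68-fold (adjusted p = 1.93e-04). Xenografts were 0.68 log2 units lower than spheres, at 0.626-fold (adjusted p = 3.13e-04), and differed from adherent cells by 0.07 (adjusted p = 0.655).

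The other ligands showed small or no called differences. WNT7B was higher in xenografts than in spheres by 0.35 (adjusted p = 0.0156), WNT9B by 0.36 (0.0264) and WNT1 by 0.28 (0.0447). Each of these calls depended on single arrays. That of WNT7B was lost without sphere replicate 2 or 3 or xenograft replicate 2 (adjusted p 0.0506 to 0.0616), and that of WNT9B without sphere replicate 2 or 3 or xenograft replicate 3 (0.0515 to 0.108). The call of WNT1 was lost without any single array except xenograft replicate 1 (0.052 to 0.143). With quantile normalization WNT1 and WNT9B were not called in that comparison (0.183 and 0.0796). WNT2, WNT2B, WNT4, WNT7A, WNT8A, WNT8B, WNT9A and WNT16 were called in no comparison at their brightest probe set, with differences from adherent cells of -0.40 to 0.40 in xenografts and -0.50 to 0.19 in spheres. One of the 3 WNT4 probe sets, 208606_s_at, was lower in spheres than in adherent cells by 0.80 log2 units, and 230751_at was higher in xenografts than in spheres by 0.38.

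Among the receptors, FZD3 and FZD6 fell in xenografts relative to both cultures, FZD1 was lower in xenografts and spheres than in adherent cells, and FZD5 moved in opposite directions in spheres and xenografts. FZD receptors gave 5 calls of 9 in xenografts against adherent cells (1 higher, 4 lower), or 55.6% against 26.9% of all genes. They gave 3 in spheres against adherent cells (2 higher, 1 lower) and 3 in xenografts against spheres (all lower), or 33.3% in each, against 29.8% and 44.0% of all genes. FZD6, a receptor of planar cell polarity in skin and hair, read 4.49, 4.34 and 3.84 in xenografts, 5.51, 5.57 and 5.70 in spheres and 5.38, 6.18 and 5.73 in adherent cells. All xenograft arrays lay below the cultured ones. The measured difference of xenografts was -1.54 ± 0.20 from adherent cells (adjusted p = 2.49e-04) and -1.37 ± 0.20 from spheres (adjusted p = 2.31e-04). The xenograft mean of 4.22 lay under the dim level, so the level there is only bounded. Set against the dim level of 5.17, FZD6 was at least 1.505-fold higher in adherent cells and at least 1.34-fold higher in spheres than in xenografts. Spheres differed from adherent cells by -0.17 (adjusted p = 0.624).

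FZD3, known for axon guidance and planar polarity in mouse, read 6.48, 6.44 and 6.29 in xenografts, 6.95, 7.14 and 7.29 in spheres and 7.15, 6.91 and 6.95 in adherent cells. Xenograft and cultured arrays did not overlap. The difference was -0.60 ± 0.11 from adherent cells (0.661-fold, adjusted p = 0.00295) and -0.72 ± 0.11 from spheres (0.606-fold, adjusted p = 4.08e-04). All 4 of its probe sets were called lower in xenografts than in adherent cells (-0.70 to -0.46). Against spheres 3 of the 4 were called, and 219683_at was not (-0.32).

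FZD5, a receptor needed for vessels of the yolk sac and placenta in mouse, read 6.54, 6.07 and 5.81 in xenografts, 7.63, 7.998 and 7.93 in spheres and 6.96, 6.98 and 6.98 in adherent cells. The 3 groups were fully separate, spheres highest and xenografts lowest. Spheres were higher than adherent cells by 0.88 ± 0.16, or 1.84-fold (adjusted p = 0.00165). Xenografts were at 0.562-fold of adherent cells (-0.83 ± 0.16, adjusted p = 0.00369) and at 0.306-fold of spheres (-1.71 ± 0.16, adjusted p = 1.08e-05). The other FZD5 probe set, 206136_at, was dim and called in no comparison, with 0.03, 0.36 and -0.32 for xenografts against adherent cells, spheres against adherent cells and xenografts against spheres.

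FZD1, a receptor that can pass the β-catenin signal, read 7.98, 7.79 and 7.82 in xenografts, 7.31, 7.83 and 7.62 in spheres and 8.40, 8.62 and 8.37 in adherent cells. The adherent arrays were the 3 highest. The difference from adherent cells was -0.60 ± 0.13 in xenografts (0.660-fold, adjusted p = 0.00752) and -0.88 ± 0.13 in spheres (0.545-fold, adjusted p = 4.11e-04). Between xenografts and spheres it was 0.28 (adjusted p = 0.117), whereas 204452_s_at gave -0.44 for the same comparison and was called there. In spheres against adherent cells 236035_at was also called lower (-0.66), and 204452_s_at was not (-0.18).

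FZD7, a receptor described on mouse muscle satellite cells as a partner of Wnt7a, averaged 7.93 ± 0.18 in xenografts, 8.22 ± 0.19 in spheres and 7.51 ± 0.10 in adherent cells (SD, n = 3). It was the 1 receptor higher than adherent cells in both groups, by 1.34-fold in xenografts (adjusted p = 0.0321) and 1.64-fold in spheres (adjusted p = 0.00118). The xenograft call was lost without any 1 adherent array or xenograft replicate 1 (adjusted p 0.0544 to 0.108) and after centring the arrays on their medians (0.0726). The second FZD7 probe set, 203705_s_at, was also higher in spheres (0.70) but gave -0.08 in xenografts against adherent cells, and it was called lower in xenografts than in spheres (-0.78). FZD2 was not called at its brightest probe set, with differences of -0.15 in xenografts and 0.07 in spheres from adherent cells. At 238129_s_at, FZD2 was lower than in adherent cells by 0.49 log2 units in xenografts and by 1.09 in spheres, both called. The same probe set was called higher in xenografts than in spheres (0.60, adjusted p = 0.00718). FZD4, FZD9 and FZD10 were called in no comparison at their brightest probe set, and the other FZD4 probe set, 224337_s_at, was higher in xenografts than in spheres by 0.54.

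Among the secreted antagonists, SFRP4 and DKK1 were lower than adherent cells in both xenografts and spheres, and DKK3 was lower in xenografts. SFRP4, described in bone and endometrium as a binder of WNT ligands, read 4.56, 5.02 and 5.12 in xenografts, 6.21, 6.20 and 6.31 in spheres and 6.57, 6.69 and 6.61 in adherent cells. The 3 groups did not overlap, xenografts lowest and adherent cells highest. The measured difference of xenografts was -1.73 ± 0.13 from adherent cells (adjusted p = 6.81e-06) and -1.34 ± 0.13 from spheres (adjusted p = 1.32e-05). The xenograft mean of 4.90 lay under the dim level, and set against that level SFRP4 was at least 2.74-fold higher in adherent cells and at least 2.09-fold higher in spheres than in xenografts. Spheres were at 0.765-fold of adherent cells (adjusted p = 0.04996), a call lost without any 1 adherent or sphere array (0.0831 to 0.151) or without xenograft replicate 2 (0.0539). The dim second probe set, 204052_s_at, gave -1.11 in xenografts and -0.96 in spheres against adherent cells, both called, and -0.15 between xenografts and spheres.

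SFRP1, which binds WNT ligands and is often silenced in carcinoma, was dim and averaged 5.10 ± 0.63 in xenografts, 4.40 ± 0.24 in spheres and 4.75 ± 0.08 in adherent cells (SD, n = 3). It was higher in xenografts than in spheres by 0.70 (adjusted p = 0.0419). Xenograft replicate 1, at 5.80, stood above xenograft replicates 2 and 3, at 4.59 and 4.89, and without it the difference was 0.34 (adjusted p = 0.0838). The call was also lost without any 1 adherent array or sphere replicate 2 or 3 (0.0569 to 0.126). Of the other SFRP1 probe sets, 202036_s_at (0.44) and 202035_s_at (0.33) were also called higher in xenografts than in spheres, and 228413_s_at gave 0.24. Unlike the brightest probe set, 202036_s_at was also called higher in xenografts than in adherent cells (0.39, adjusted p = 0.0320). Xenograft replicate 1 also had the highest LUM value, at 8.31 against 6.47 and 6.56 in the other xenografts, 3.50, 4.51 and 4.31 in spheres and 4.22, 4.53 and 4.14 in adherent cells. LUM is 1 of the 10 fibroblast and matrix markers, which did not all move with it. PDGFRB averaged 4.74 in xenografts, 5.26 in spheres and 5.54 in adherent cells. SFRP2, a matrix-bound relative made by fibroblasts, was dim and higher in xenografts than in spheres by 0.39 (adjusted p = 0.0404), a call lost without any 1 adherent array, sphere replicate 2 or 3 or xenograft replicate 3 (0.0543 to 0.162). In xenograft replicates 1, 2 and 3 SFRP2 read 4.58, 4.62 and 5.04, so replicate 1 was the lowest. With quantile normalization neither SFRP1 nor SFRP2 was called (0.0659 and 0.0592). The part of fibroblast RNA in these values was not tested. SFRP5 was called in no comparison.

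DKK3, a divergent Dickkopf protein that does not block LRP6 as DKK1 does, read 7.24, 6.97 and 7.08 in xenografts, 8.96, 9.27 and 9.06 in spheres and 8.22, 8.22 and 8.36 in adherent cells. The groups were fully separate, spheres highest and xenografts lowest. Xenografts were at 0.444-fold of adherent cells (-1.17 ± 0.11, adjusted p = 2.87e-05) and at 0.250-fold of spheres (SE 0.11 on the log2 scale, adjusted p = 2.13e-07) at this probe set, 230508_at. The other 5 probe sets gave -0.75 to 0.23 in xenografts against spheres, 2 of them called lower, so the size of that decrease rests on 1 probe set. The increase in spheres over adherent cells was 0.83 ± 0.11, or 1.78-fold (adjusted p = 1.49e-04), also at 230508_at. Of the 6 DKK3 probe sets, 3 others were also called lower in xenografts than in adherent cells. These were 214247_s_at (-0.99) and the dim 221127_s_at (-0.81) and 202196_s_at (-1.11). At 214247_s_at the xenograft arrays read 8.33, 7.11 and 7.10, against an adherent mean of 8.51. The dim 207875_at and 221126_at gave 0.25 and -0.02 in that comparison. None of the other 5 was called in spheres, where they gave -0.39 to 0.02, so the sphere increase rests on 1 probe set.

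DKK1, the prototype inhibitor of LRP5 and LRP6 and itself a target of β-catenin, was dim and read 2.55, 3.26 and 2.86 in xenografts, 3.18, 3.38 and 3.42 in spheres and 4.14, 3.92 and 4.12 in adherent cells. Adherent arrays were the 3 highest, and xenograft and sphere arrays overlapped. The measured difference from adherent cells was -1.17 ± 0.16 in xenografts (adjusted p = 3.19e-04) and -0.73 ± 0.16 in spheres (adjusted p = 0.00428). All 3 group means lay under the dim level, so no fold is given for DKK1. Xenografts were lower than spheres by 0.44 log2 units (adjusted p = 0.0434), a call lost without any 1 array except sphere replicate 1 and xenograft replicate 2 (0.053 to 0.135). DKK2 and DKK4 were dim, and were called in no comparison at their brightest probe set. The 2 DKK2 probe sets differed in sign in xenografts against adherent cells, 219908_at being called lower (-0.33) and 224199_at reading 0.33 (adjusted p = 0.0534).

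DKK1 and SFRP4 are shown with their start regions because both had called decreases in xenografts and spheres against adherent cells, DKK1 within the dim range, and each holds 1 of the searched words. FZD1 also had called decreases in both, and its window, which holds none of the words, is not shown. From RefSeq in GRCh38.p14, DKK1 lies at chr10:52314031-52314330 on the plus strand and SFRP4 at chr7:37916768-37917067 on the minus strand, each written 5′ to 3′ along its gene, and capitals mark the match.
DKK1: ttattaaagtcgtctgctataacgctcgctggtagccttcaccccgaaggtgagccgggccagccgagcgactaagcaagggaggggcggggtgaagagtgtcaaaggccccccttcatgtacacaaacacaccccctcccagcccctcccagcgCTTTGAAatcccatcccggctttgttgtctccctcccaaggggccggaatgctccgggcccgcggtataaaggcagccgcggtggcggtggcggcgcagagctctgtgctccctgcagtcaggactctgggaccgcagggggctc
SFRP4: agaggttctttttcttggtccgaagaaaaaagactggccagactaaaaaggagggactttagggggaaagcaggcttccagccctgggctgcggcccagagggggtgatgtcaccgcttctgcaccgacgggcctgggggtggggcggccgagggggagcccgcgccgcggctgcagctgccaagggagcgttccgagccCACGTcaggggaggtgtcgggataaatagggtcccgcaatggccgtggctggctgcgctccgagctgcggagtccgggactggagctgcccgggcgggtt
In DKK1 the capitals are TTCAAAG read on the opposite strand, with the first base at position -95 from the start site, a word held by 4.43% of the 35116 promoters. In SFRP4 they are ACGTG on the opposite strand at position -50, a word held by 21.4%. The other word-bearing member was WNT8A, with ACGTG.

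**Figure D3:**
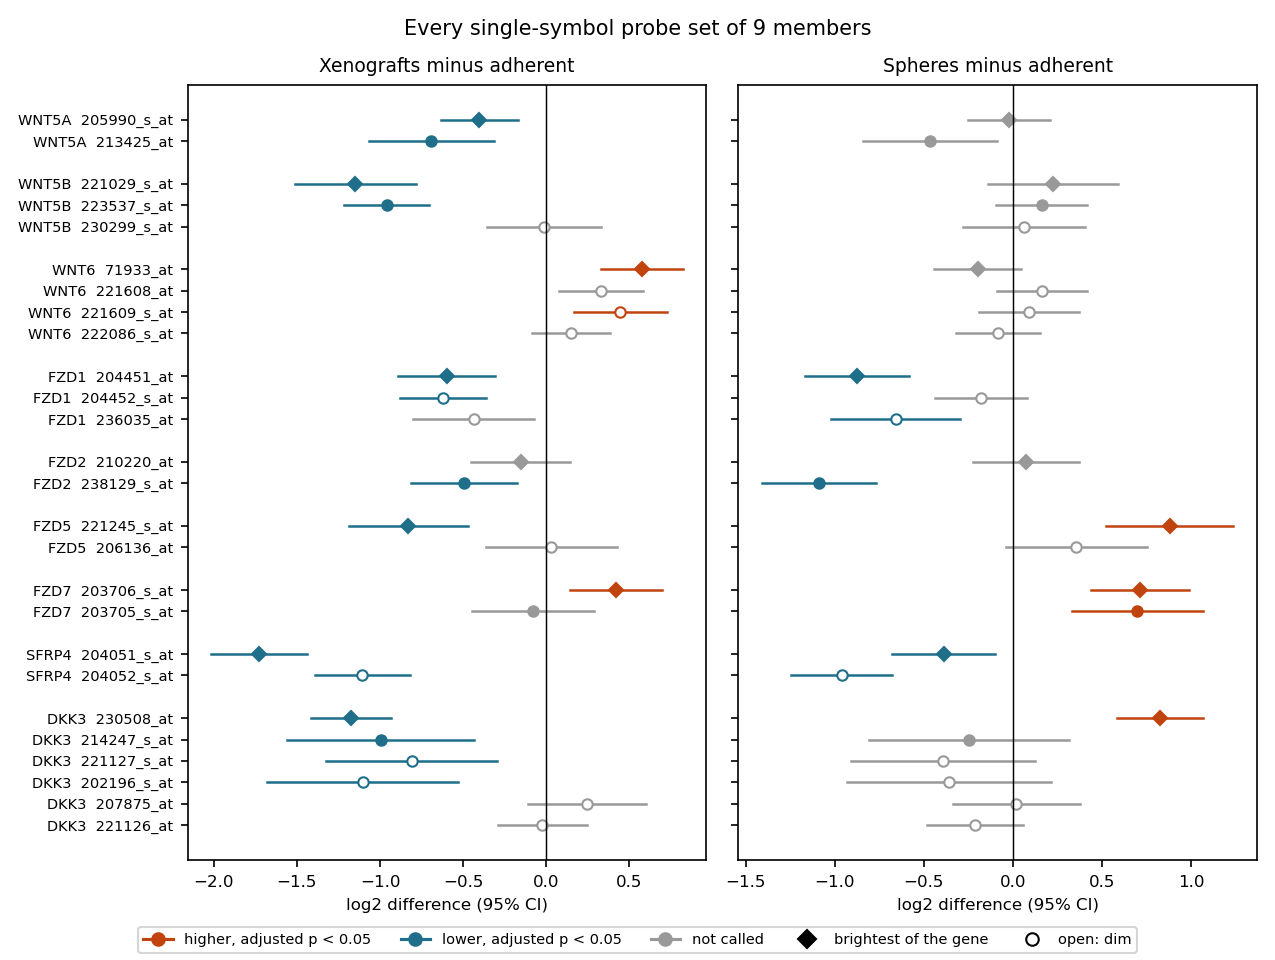
Difference in log2 RMA value (x axis, with 95% confidence interval) in xenografts minus adherent cells and spheres minus adherent cells for all 26 probe sets of 9 members (y axis). Diamonds are the brightest probe set of a gene, open symbols are dim, red and blue are called higher and lower; the sphere increase of DKK3 appears at 1 of 6 probe sets, whereas its xenograft decrease appears at 4, dim ones among them.

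Over all 69 probe sets, 26 were called in xenografts against adherent cells (5 higher, 21 lower), against 23.0% of all probe sets. In spheres against adherent cells 12 were called (5 higher, 7 lower), against 26.0%. In xenografts against spheres 31 were called (15 higher, 16 lower), against 39.1%. Probe sets of 1 gene share their transcript and are not independent.

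The rest of the pathway was read through 7 lists. Dim throughout were 2 of 26 destruction and relay genes, 3 of 24 planar polarity and calcium genes and 1 of 17 TCF/LEF genes. So were 1 of 12 secretion and coreceptor genes, 6 of 9 R-spondin axis genes, 7 of 14 further antagonists and 8 of 22 targets. The shares and medians over all genes count dim genes too, and the part of brightness in the differences was not tested. In xenografts against adherent cells the calls were mostly decreases in the cytoplasmic and planar polarity lists. In the list of β-catenin destruction and cytoplasmic relay, 2 of 26 genes were higher and 11 lower in xenografts than in adherent cells (50.0% called, against 26.9% of all genes, with a median of -0.23, against 0.08). TNKS, which marks AXIN proteins for degradation, was at 0.499-fold of adherent cells in xenografts (adjusted p = 5.41e-05) and 1.42-fold in spheres (adjusted p = 0.00313). BTRC, the ligase that recognises phosphorylated β-catenin, was at 0.566-fold in xenografts and 0.518-fold in spheres (adjusted p = 3.99e-04 and 7.19e-05). DACT1, a regulator of Dishevelled, was at 1.496-fold in xenografts (adjusted p = 0.0182, lost without adherent replicate 1 or 3 at 0.0597 and 0.0585) and 1.98-fold in spheres (adjusted p = 4.91e-04). Its relative DACT3 was lower in xenografts than in spheres, at 0.508-fold (adjusted p = 0.00169). Relative to adherent cells, spheres had 2 genes of this list higher and 6 lower (30.8% called, against 29.8% of all genes, with a median of -0.13, against -0.04).

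**Figure D4:**
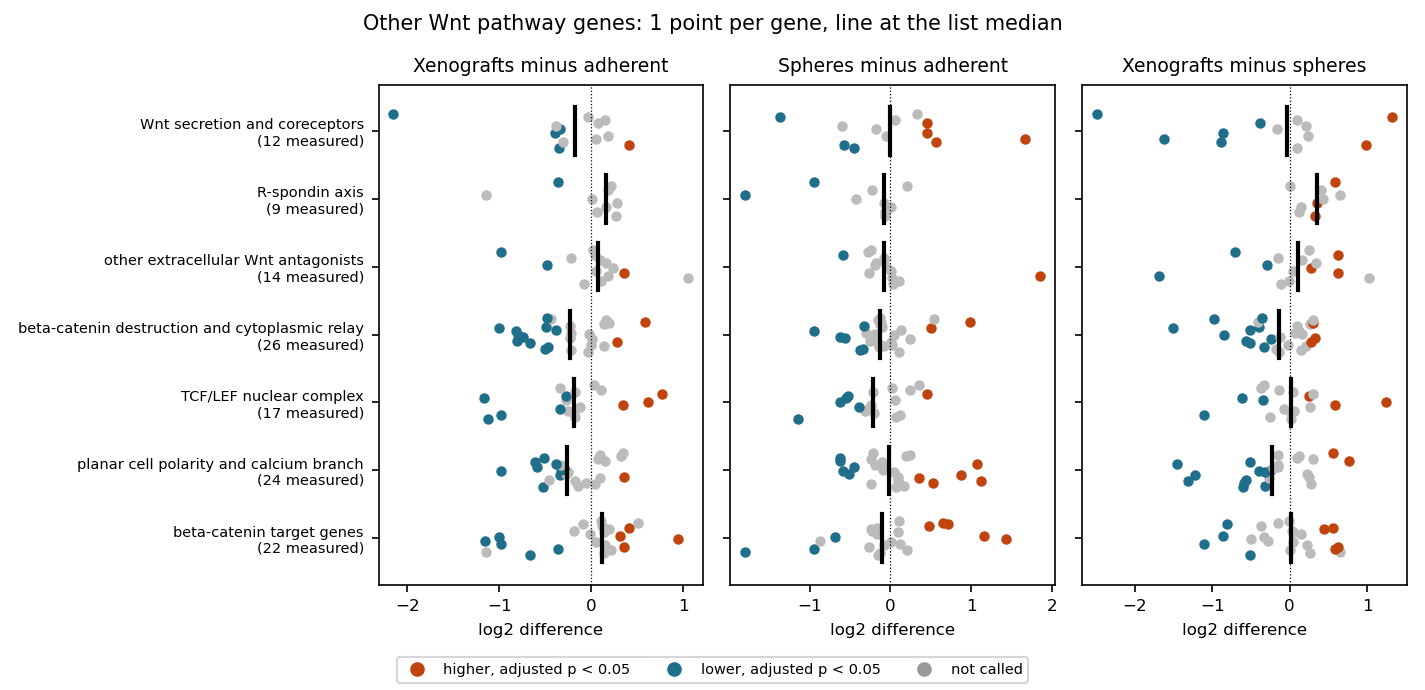
Difference in log2 RMA value (x axis) of each gene in 7 Wnt pathway lists (y axis) for xenografts minus adherent cells, spheres minus adherent cells and xenografts minus spheres; 1 point is a gene at its brightest probe set, red and blue are called higher and lower, and the black line is the list median. In the first panel 11 of 26 destruction and relay genes and 9 of 24 planar polarity and calcium genes are blue.

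In the planar cell polarity and calcium list, 1 of 24 genes was higher and 9 were lower in xenografts than in adherent cells (41.7% called, against 26.9% of all genes, with a median of -0.27). With quantile normalization these counts were 3 and 7, and with centred arrays all 10 calls were decreases. Spheres had 5 higher and 5 lower (41.7%, against 29.8% of all genes). CAMK2D, a calcium/calmodulin-dependent kinase, was at 2.10-fold of adherent cells in spheres (adjusted p = 2.86e-06) and 0.765-fold in xenografts (adjusted p = 0.00585, lost with quantile normalization at 0.0601). CELSR3, an atypical cadherin of the planar polarity core, was at 2.18-fold in spheres (adjusted p = 1.56e-05) and 0.882-fold in xenografts (adjusted p = 0.252). DAAM1, the formin that links Dishevelled to RHOA, was at 1.83-fold in spheres (adjusted p = 6.85e-05) and at 0.787-fold in xenografts (adjusted p = 0.0333), the xenograft call being lost without adherent replicate 2 or 3 or xenograft replicate 2 or 3 (0.057 to 0.109) and with quantile normalization (0.217). ROCK2, the kinase acting below RHOA, was at 0.506-fold in xenografts and 0.664-fold in spheres (adjusted p = 5.58e-05 and 9.81e-04).

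Of 12 secretion and coreceptor genes measured, 1 was higher and 4 lower in xenografts than in adherent cells (41.7% called, against 26.9% of all genes), and 4 were higher and 3 lower in spheres (58.3%, against 29.8%). With quantile normalization the xenograft counts were 1 and 1. GPC4, a glypican that binds WNT ligands at the cell surface, read 5.10, 5.96 and 5.30 in xenografts, 7.71, 8.07 and 8.03 in spheres and 7.58, 7.66 and 7.58 in adherent cells. Its xenograft arrays stood apart, at 0.225-fold of adherent cells (adjusted p = 1.55e-05). GPC3, another glypican, was at 0.389-fold of adherent cells in spheres (adjusted p = 1.57e-05) and 0.974-fold in xenografts (adjusted p = 0.862). ROR1, a receptor of WNT5A, read 5.83, 5.56 and 5.70 in xenografts, 7.26, 7.30 and 7.39 in spheres and 5.60, 5.68 and 5.65 in adherent cells, so that only the sphere arrays were raised, at 3.19-fold of adherent cells (adjusted p = 4.11e-07). LRP5 was at 0.670-fold of adherent cells in spheres (adjusted p = 0.00281) and 1.33-fold in xenografts (adjusted p = 0.0260), the xenograft call being lost without any 1 adherent array or xenograft replicate 3 (0.0545 to 0.0854).

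Of 9 genes of the R-spondin axis, which controls receptor turnover at the membrane, 1 was called in xenografts against adherent cells (11.1%, against 26.9% of all genes) and 2 in spheres against adherent cells (22.2%, against 29.8%), all lower. With quantile normalization the xenograft call was lost. LGR5, an R-spondin receptor and stem cell marker of the gut, read 4.39, 6.85 and 6.14 in xenografts, 5.01, 5.07 and 5.34 in spheres and 6.69, 7.17 and 6.94 in adherent cells. The measured difference of spheres from adherent cells was -1.80 (adjusted p = 0.0108), and with the sphere mean under the dim level LGR5 was at least 3.39-fold higher in adherent cells than in spheres. The xenograft arrays spanned a wide range (0.453-fold of adherent cells, adjusted p = 0.0899). ZNRF3, a ligase that removes Frizzled receptors, was at 0.517-fold of adherent cells in spheres (adjusted p = 1.35e-05) and 0.776-fold in xenografts (adjusted p = 0.0132), the xenograft call being lost without adherent replicate 2 (0.0639) and with quantile normalization (0.117). Of 14 further extracellular antagonists, 1 was higher and 2 were lower in xenografts than in adherent cells (21.4% called, against 26.9% of all genes), and 1 was higher and 1 lower in spheres (14.3%, against 29.8%). With centred arrays the xenograft counts were 0 and 2. The higher gene there, NOTUM, also lost its call without any 1 adherent or xenograft array or sphere replicate 3 (adjusted p 0.0572 to 0.118). SOSTDC1, a secreted inhibitor of WNT and BMP signals, was at 3.63-fold of adherent cells in spheres (adjusted p = 1.34e-06) and 1.13-fold in xenografts (adjusted p = 0.346). DRAXIN, an axon guidance protein that antagonises WNT, was at 0.507-fold of adherent cells in xenografts (adjusted p = 4.73e-04) and 0.826-fold in spheres (adjusted p = 0.192). KREMEN2, a receptor for Dickkopf proteins, was at 0.667-fold of adherent cells in spheres (adjusted p = 0.00114) and 1.02-fold in xenografts (adjusted p = 0.837).

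Of 17 genes of the TCF/LEF nuclear complex, 3 were higher and 5 lower in xenografts than in adherent cells (47.1% called, against 26.9% of all genes), and 1 was higher and 5 lower in spheres (35.3%, against 29.8%). The xenograft counts were 3 and 3 with quantile normalization and 2 and 6 with centred arrays. LEF1, a DNA-binding partner of β-catenin, was at 0.506-fold of adherent cells in xenografts (adjusted p = 1.89e-05) and 1.09-fold in spheres (adjusted p = 0.363). TCF7L1, mostly a repressor in the absence of β-catenin, was at 0.458-fold in xenografts and 0.452-fold in spheres (adjusted p = 5.58e-05 and 2.17e-05). TLE4, a corepressor of TCF/LEF factors, was at 0.445-fold in xenografts and 0.682-fold in spheres (adjusted p = 1.17e-05 and 0.00108). Its relative TLE2 was higher in xenografts than in spheres, at 2.36-fold (adjusted p = 2.94e-04).

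Of 22 β-catenin target genes measured, 4 were higher and 5 lower in xenografts than in adherent cells (2 and 5 with each array centred), or 40.9% called against 26.9% of all genes, and 5 were higher and 3 lower in spheres (36.4%, against 29.8%). MYC, the transcription factor of growth, was at 2.24-fold of adherent cells in spheres (adjusted p = 4.38e-06) and 1.24-fold in xenografts (adjusted p = 0.0375), the xenograft call being lost without any 1 adherent array, sphere replicate 2 or 3 or xenograft replicate 2 (0.0513 to 0.112) and with each array centred (0.0750). BAMBI, a decoy receptor of TGF-β signaling, was under the dim level in adherent cells and at least 1.67-fold higher in xenografts (adjusted p = 0.0206) and at least 2.36-fold higher in spheres (adjusted p = 0.00116), the xenograft call being lost without any 1 adherent array (0.0531 to 0.0661). AXIN2, a general feedback target of β-catenin that is named here after its values were seen, read 6.73, 6.58 and 6.33 in xenografts, 6.98, 7.19 and 7.03 in spheres and 7.12, 7.35 and 7.19 in adherent cells. It was lowest in the 3 xenograft arrays, at 0.628-fold of adherent cells (adjusted p = 0.00188), and at 0.897-fold in spheres (adjusted p = 0.413). These genes answer to other signals too, and the lists of the pathway overlap by a few genes such as AXIN2, LEF1 and LGR5.

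Between xenografts and spheres, the same lists gave 3 higher and 10 lower of 26 destruction and relay genes (5 and 9 with quantile normalization) and 2 higher and 11 lower of 24 planar polarity and calcium genes (4 and 9). These are 50.0% and 54.2% called, against 44.0% of all genes, and the medians were -0.13 and -0.23, against 0.13. Of the secretion and coreceptor genes 2 were higher and 5 lower (58.3%), of the R-spondin axis 3 were higher (33.3%), and of the further antagonists 3 were higher and 3 lower (42.9%). The last 2 lists had 2 higher, and 3 higher and 2 lower, with quantile normalization, and the calls of RSPO1, RSPO4, TRABD2A and TRABD2B were each lost without sphere replicate 3 and without some other single arrays. The TCF/LEF list split into 3 and 3 (35.3%, or 5 and 3 with quantile normalization) and the target list into 4 and 4 (36.4%). Among the named genes, GPC4 was at 0.179-fold of spheres in xenografts (adjusted p = 1.74e-06), ROR1 at 0.325-fold (3.61e-07) and SOSTDC1 at 0.311-fold (2.00e-06), while GPC3 was at 2.51-fold (1.49e-05) and LRP5 at 1.98-fold (5.04e-05). GPC4, ROR1, GPC3 and LRP5 belong to the coreceptor list, and SOSTDC1 to the antagonists.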

How the data were processed

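RNA from 9 samples was hybridised to Affymetrix HG-U133 Plus 2.0 arrays, which hold no depth, so that their number limits the precision. The deposited values are log2 intensities, 1 per probe set and array, which the authors computed by RMA over all arrays jointly. The software version and detection calls are not given in the sources used here. The values are not relative to the adherent mean. Groups came from the labels. Of the probe sets 62 controls were set aside, and genes were named from the platform annotation, which gives 1 symbol for 41091 probe sets, several for 1801 and none for 11721. Linear models with moderated variances (lmFit, eBayes) used all 9 arrays and 6 residual degrees of freedom in limma 3.58.1 under R 4.3.3, and p-values were adjusted by Benjamini-Hochberg over all 54613 probe sets, two-sided. No filter on low values was used. The fit was tested on simulated data.

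Members and lists were chosen with earlier results of these data known. Every array is given for members called with a difference of at least 1 log2 unit and no overlap of arrays, filled up to 12 by the size of their called change, and for each pathway list up to 4 called genes of largest change were named. Alternatives covered normalization, probe set choice, variance estimation, an unpaired t-test, a replicate block and leaving out each array. The study's methods list the unpaired t-test among others and name no test for the arrays. Where 1 group mean lay under the dim level, a fold was bounded by setting that group to the level, and where both did, no fold was given.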

Additional observations from a re-analysis of the deposited data

How the results depend on the processing

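Of 558 alternative values for 27 results of the 12 members given by array, 514 kept direction and call, 42 kept direction but lost the call and 2 reversed: DKK3 in spheres against adherent cells was -0.060 with all its probe sets averaged (adjusted p = 0.799), and FZD5 in xenografts against adherent cells was 0.032 at the probe set not ending in _s_at or _x_at (adjusted p = 0.916). Many of these values could not change direction. The variance trend, replicate block, t-tests, 2-fold setting and the fit of only the compared groups reuse the same mean difference. So does leaving out an array of the group not compared. Leaving out _s_at and _x_at probe sets changes nothing where the brightest probe set has neither ending. The 514 is therefore not a count of independent checks. Members called in xenografts against adherent cells numbered 12, against 5 under the unpaired t-test after adjustment and 5 at 2-fold. Those in spheres against adherent cells numbered 7, against 11 with array weights, 0 at 2-fold by limma (9 at an unadjusted p under 0.05) and 4 of 27 measured without _s_at and _x_at probe sets. Those in xenografts against spheres numbered 17, against 11 of 18 measured with brighter probe sets only, 9 under the adjusted t-test, 7 at 2-fold and 10 of 27 without _s_at and _x_at probe sets. Leaving out 1 array gave 10 to 14, 6 to 8 and 10 to 17 calls in the same order, the 10 in the last without sphere replicate 3. The median in xenografts against adherent cells was 0.027 with quantile normalization, 0.045 with arrays centred and -0.29 over brighter probe sets (0.08 to 0.12 leaving out 1 array). In spheres against adherent cells it was -0.093 with all probe sets averaged (-0.081 to 0.0074 leaving out 1 array). In xenografts against spheres it was -0.26 over brighter probe sets and 0.16 with all averaged (0.060 to 0.17 leaving out 1 array). The sign of a median over members thus depends on whether dim members are counted; for the other shifts the cause was not tested. Over all genes, the share of calls that were higher in xenografts than in adherent cells was 46.9%, against 58.8% with quantile normalization and 36.1% with arrays centred.

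The labels number the arrays 1 to 3 in each group, but same-numbered arrays did not deviate together (correlations -0.18 to 0.18, 2 of 9 pairs over 0.1, 6 of 18 best matches under the same number). With the replicate number as a block, 13, 7 and 16 members were called in xenografts against adherent cells, spheres against adherent cells and xenografts against spheres. FZD7 in xenografts against adherent cells and SFRP2 in xenografts against spheres were not called in that model (adjusted p = 0.0570 and 0.0677). Signal near background limits the 16 dim members, for which an uncalled difference does not show equal levels.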
